A study of Mus musculus with 4 samples.

Results

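The messenger RNAs of 10 proteins of the acrosome were followed through mouse sperm development: Acr, Acrbp, Acrv1, Zpbp, Zpbp2, Spaca1, Spaca3, Spaca4, Spaca7 and Zp3r. They were chosen by gene symbol, all 10 were found among the 28692 genes counted, and each symbol named 1 row. The cells came from whole testes of C57BL/6 mice at postnatal day 63, freed with enzymes and profiled by droplet sequencing of transcript 3' ends with unique molecular identifiers (UMI), so that 1 UMI stands for 1 captured transcript molecule whatever its length. By the labels 2 samples were Phf7 f/f, with both Phf7 alleles flanked by loxP sites, and 2 were Phf7 tKO, with the same floxed alleles and the transgene Stra8-Cre, whose promoter is active in germ cells around the entry into meiosis. All 4 samples therefore carried the floxed alleles, the Phf7 f/f samples are described without Cre, and no Cre-only control is among the 4 samples used here. PHF7 is a histone-binding ubiquitin ligase of the testis.

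The deposited matrix holds the 4 samples together, as barcodes with suffixes 1 to 4, and neither labels nor headers say which suffix is which sample. The genotypes were therefore not compared and no test was made: each suffix is 1 library of unknown genotype. Where 4 values are given in a row, they belong to suffixes 1, 2, 3 and 4.

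The acrosome is a membrane-bound vesicle that forms from Golgi-derived granules after meiosis and spreads over the spermatid nucleus as a cap. Its matrix holds proteases and zona pellucida-binding proteins, and its membranes carry proteins needed for shaping the vesicle and for meeting the egg. Transcription stops as protamines compact the spermatid nucleus, so messages used late are stored from earlier stages.

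Among the members, Acr encodes acrosin, the main serine protease of the matrix, and Acrbp the protein that binds its zymogen. Zpbp and Zpbp2 encode paralogous matrix proteins that bind the zona pellucida, and Zp3r encodes the matrix protein sp56. Acrv1 encodes SP-10, a testis-specific intra-acrosomal protein, and Spaca1 an acrosomal membrane protein whose loss gives round-headed sperm. Spaca3 encodes a lysozyme-like protein, Spaca4 a small membrane protein of the Ly6 family, and Spaca7 a secretory protein of the acrosome.

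The 10 genes lie on 8 chromosomes of the mouse build GRCm38 (mm10), with spans here from the GENCODE M21 annotation. Acr spans chr15:89568326-89574585 and Acrbp chr6:125049689-125063267, both on the plus strand. Zpbp spans chr11:11279626-11462408 on the minus strand, Zpbp2 chr11:98551097-98558665 on the plus strand, and Spaca3 chr11:80858365-80867814 on the plus strand. Acrv1 spans chr9:36693220-36698843 and Spaca7 chr8:12573029-12600744, both on the plus strand. Spaca1 spans chr4:34024874-34050191, Spaca4 chr7:45725107-45725813 and Zp3r chr1:130576713-130629621, all on the minus strand. Spaca4 has 1 exon and overlaps Fam83e, Zpbp overlaps Spata48, Acrbp overlaps an antisense transcript and Spaca7 a divergent long non-coding RNA. The counting's use of strand is not given in the sources, so reads from these overlapping pairs may not be told apart.

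The stretch before the start of transcription is shown for 4 members because the results below set them apart by timing: Zpbp and Zpbp2 are present from pachytene, and Acrv1 and Spaca3 only later. The sequences are RefSeq's for GRCm38.p6, read 5′ to 3′ on the gene's strand and ending at the base before the first annotated start. Capitals mark letters searched for on either strand: CAGTT, the core of the MYB site, and TGACG, the left arm of the CRE palindrome to which CREM binds.
Zpbp, chr11:11462420-11462669, minus strand: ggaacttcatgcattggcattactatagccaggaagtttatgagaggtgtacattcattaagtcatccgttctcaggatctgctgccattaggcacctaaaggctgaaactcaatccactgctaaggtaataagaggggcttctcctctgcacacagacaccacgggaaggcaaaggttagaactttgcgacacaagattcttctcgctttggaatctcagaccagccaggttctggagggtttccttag
Zpbp2, chr11:98550847-98551096, plus strand: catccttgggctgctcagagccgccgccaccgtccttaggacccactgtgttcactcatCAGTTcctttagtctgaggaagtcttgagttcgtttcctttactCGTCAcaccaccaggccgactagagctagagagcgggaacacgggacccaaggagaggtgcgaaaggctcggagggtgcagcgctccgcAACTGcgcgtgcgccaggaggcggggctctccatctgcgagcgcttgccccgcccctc
Acrv1, chr9:36692970-36693219, plus strand: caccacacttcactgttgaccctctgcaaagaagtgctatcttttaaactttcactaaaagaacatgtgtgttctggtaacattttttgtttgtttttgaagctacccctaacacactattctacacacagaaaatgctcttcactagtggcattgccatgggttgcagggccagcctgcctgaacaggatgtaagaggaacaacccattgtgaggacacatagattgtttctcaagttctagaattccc
Spaca3, chr11:80858113-80858362, plus strand: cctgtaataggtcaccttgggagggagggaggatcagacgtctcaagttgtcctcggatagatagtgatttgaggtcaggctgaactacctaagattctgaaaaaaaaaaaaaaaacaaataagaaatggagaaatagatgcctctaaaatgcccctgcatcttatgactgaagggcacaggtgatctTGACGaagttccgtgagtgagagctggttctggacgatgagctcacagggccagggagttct
Zpbp2 held CAGTT 191 and 58 bases before the start and TGACG 147 bases before it, and Spaca3 held TGACG 62 bases before it. Neither letter group was found before the start in Zpbp or Acrv1.

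RefSeq windows of 300 bases, of which 50 lie after the start, were found for 9 of the 10 members, all but Acr. TGACG was in the windows of 4 of these 9 genes (Acrbp, Spaca1, Spaca3 and Zpbp2) and in 20.8% of all 32841 promoter windows. Spaca1 held 2 copies, both within the GENCODE span of the gene given above. The Acrbp copy, 18 bases before the RefSeq start, also lay within its GENCODE span. CAGTT was in 4 of 9 (Acrv1, Spaca7, Zp3r and Zpbp2) against 44.8% of all windows, and GTTGCC, an arm of the RFX site, in 2 of 9 (Acrbp and Zp3r) against 12.5%. The GTTGCC of Acrbp, 199 bases before the RefSeq start, lay within its GENCODE span too. The full CRE palindrome TGACGTCA was in none of the 9 and in 1.79% of all windows. Zpbp2 (64% G and C, 26 CpG), Spaca1 (63%, 16 CpG) and Acrbp (57.3%, 17 CpG) had more CpG than the median window (52.7%, 7 CpG), whereas Acrv1, Spaca7 and Zp3r had 1 CpG each. By the share of G and C, both the earlier Zpbp2 and Zpbp (50%) and the later Spaca1 and Acrv1 (43.3%) lay on opposite sides of the median. A match describes letters, not a bound site.

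The matrix held 190744950 UMI in 32273 barcodes, between 44447735 and 50353091 per suffix. Cells with at least 500 genes and at most 10% mitochondrial UMI numbered 29968, with a median of 2633 UMI. They were clustered without the members and without a wider list of acrosome genes, and clusters were named by markers outside these lists. Other genes that move with the members remained, so the stages are not independent of them. Of the kept cells 24.8% stayed unnamed, with a median of 943 UMI. The doublet caller marked 1 cell and had therefore not worked, so doublets remain. Of 31772 distinct barcode sequences 497 occurred under more than 1 suffix. In the round spermatid-like stage Phf7 read 77.9, 430.4, 835.6 and 116.5 CPM (UMI of the gene scaled to a total of 1000000) and Brdt, a testis bromodomain gene, 113.8, 126.9, 116.2 and 114.9 CPM.

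Germ cells formed 17 clusters in 6 stages: spermatogonia-like (SG, 716 cells), leptotene to zygotene-like (LZ, 414), pachytene-like (P1 and P2, 968), diplotene to dividing spermatocyte-like (D1 to D3, 3662), round spermatid-like (R1 to R5, 5486) and elongating spermatid-like (E1 to E5, 8792). Spermatocyte clusters were ordered by markers of late over early meiosis, round clusters by the share of protamine and transition protein UMI, and elongating clusters by Prm2 over Tnp1. D3 and E5 were moved to the end of their stage after their marker levels had been seen. D3 scored 1.16 on diplotene to dividing markers and 0.793 on round spermatid markers. E5 was moved because its Prm2 level was not above that of Sertoli-like cells, and it is rich in Smcp. Its Prm2 over Tnp1 of 9.28 would have put it before E3 (47.2). Protamine and transition protein UMI made up 2.87% of E5, and its elongating score was 0.656, so its place as the latest cluster is uncertain. Median depth was uneven, from 1566 UMI per cell in R3 to 46935 in P2. Free RNA in the droplets weighs most in shallow cells, so each level is set beside the same gene's UMI per cell in 5 somatic classes, of which the Sertoli-like class was the largest (1593 cells, median 1097 UMI).

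Together the 10 members made up 621.4 CPM of the RNA in spermatogonia-like cells and 605.1 in LZ, then 1958 in pachytene, 6861 in diplotene to dividing, 5930 in round and 497.2 in elongating cells. The highest cluster was R2, at 13766 CPM or 1.38% of all UMI, followed by D3 at 10409 CPM. The sum did not rise evenly along the order. It was 5805 CPM in D1, 3139 in D2 and, between D3 and R2, 5696 in R1. In UMI per cell the sum went from 2.85 in LZ to 53.3 in pachytene, 29.6 in diplotene to dividing, 51.2 in round and 4.10 in elongating cells. The Sertoli-like class, which makes no acrosome, held 2.78 UMI per cell and the Leydig-like class 1.62. The sums in SG (2.84) and LZ were thus near the Sertoli-like level. Free RNA and remaining doublets in somatic barcodes were not told apart.

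**Figure D1:**
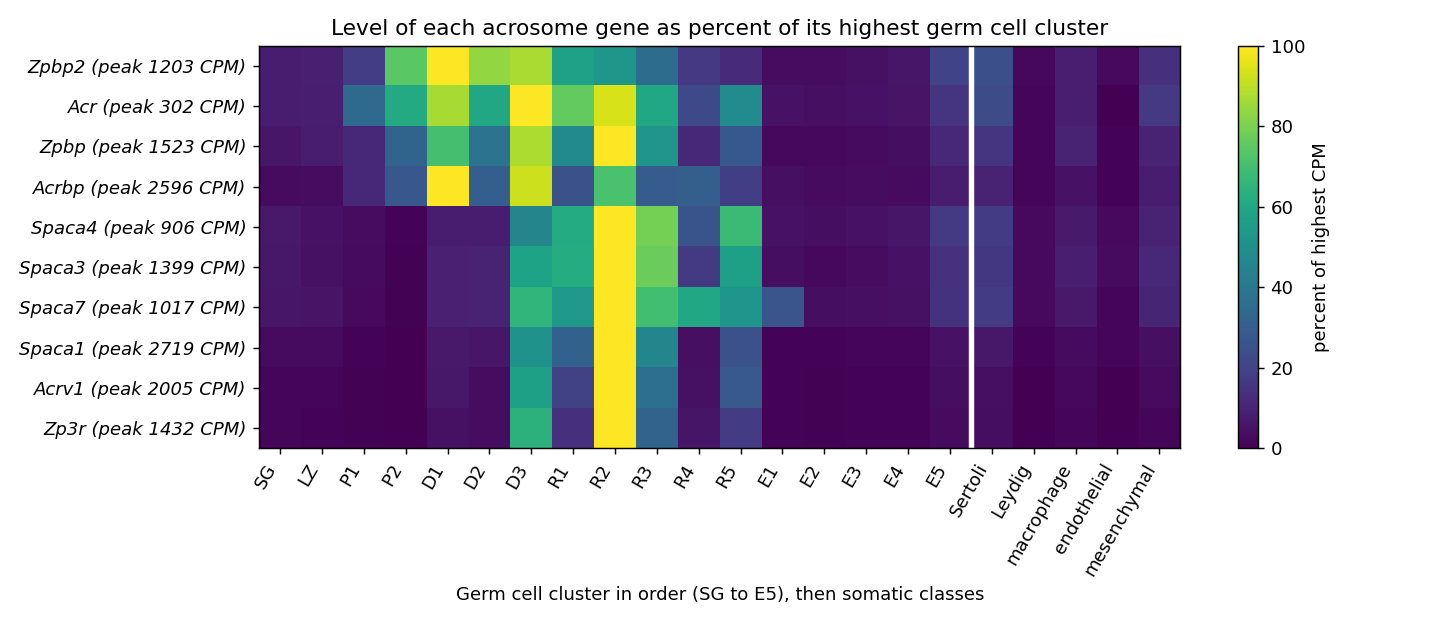
Level of each acrosome gene (rows) in 17 germ cell clusters in order from SG to E5, then 5 somatic classes (columns), as a percent of the gene's highest germ cell cluster; the peak in CPM stands beside each name. In P2 Zpbp2, Acr, Zpbp and Acrbp are at 27.0% of their peak or more and the other 6 at 0.847% or less; in E1 Spaca7 is at 26.6% and the other 9 at 4.91% or less.

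The members fell into an earlier and a later set. Acr, Acrbp, Zpbp and Zpbp2 first reached 10% of their peak, at a level per cell above every somatic class, in P1. The other 6 did so in the diplotene to dividing stage: Acrv1, Spaca1, Spaca4, Spaca7 and Zp3r in D3, and Spaca3 just past the 10% mark in D2, at 141.4 CPM against a peak of 1399. Whether Spaca3 came before the other 5 depends on D3 being placed after D2, which was decided after its markers had been seen. By whole stages, the planned form of this rule, Spaca3 and Zpbp passed earlier. Spaca3 passed in spermatogonia-like cells, at 91.96 CPM against a stage peak of 872 and 0.420 UMI per cell against a somatic maximum of 0.364. It then failed the rule in LZ (64.5 CPM, 0.304 UMI per cell) and in pachytene (18.4 CPM), so no lasting start is read from this. Zpbp passed in LZ, at 113.1 CPM against 1025 and 0.534 UMI per cell against 0.457. Zpbp2 narrowly missed the rule there, at 105.5 CPM against 1077 and 0.498 UMI per cell against 0.471. The CPM intervals of the paralogues in LZ overlapped, so no order between them is read from this. Cluster P2 shows the contrast most plainly: Zpbp2 was there at 74.5% of its peak, Acr at 61.0%, Zpbp at 32.1% and Acrbp at 27.0%, while the other 6 were between 0.131% (Zp3r) and 0.847% (Spaca4).

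Zpbp2 stood nearest to its peak in P2, and Acr in P1, at 103.7 of 301.9 CPM. Zpbp2 read 134.4, 124.0, 85.1 and 81.6 CPM in LZ, 198.3, 241.5, 204.6 and 239.5 CPM in P1 and 825.9, 948.5, 919.7 and 864.6 CPM in P2. The 3 clusters did not overlap in any suffix. Its highest cluster was D1 in all 4 suffixes, at 1169, 1147, 1218 and 1288 CPM. From there it was lower in R2 (573.9, 569.1, 732.4 and 690.4 CPM), while Zpbp, its paralogue, was higher in R2 than in D1 in every suffix.

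Zpbp read 1015, 988.7, 1075 and 1230 CPM in D1 and 1506, 1452, 1549 and 1610 CPM in R2, its highest cluster. All 4 values in R2 lay above all 4 in D1. The paralogues thus shared their first cluster and differed in their last rise, with profiles that correlated at r = 0.935 over the 17 clusters.

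Acrbp had the highest level of the earlier set. It read 74.0, 92.4, 78.2 and 86.0 CPM in LZ, 692.7, 722.1, 731.9 and 650.4 CPM in P2 and 2446, 2639, 2366 and 2970 CPM in D1, its highest cluster in all 4 suffixes. D3 followed at 2341, 2266, 2231 and 2735 CPM, which overlaps the range of D1. D2, placed between D1 and D3, was at 778.5 CPM in the pool. The leading genes of D1 were Hspa5, an endoplasmic reticulum chaperone gene, then Slc2a3, Prss42 and Slc2a8, with Pdia6 and Hsp90b1 further down. In D1 Acrbp was in 90.1% of cells thinned to 1000 UMI each (95% Clopper-Pearson interval 87.7 to 92.2, 699 cells) against 21.0% of Sertoli-like cells thinned alike.

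Acr was the least abundant member, with a flat top. It read 304.8, 280.0, 314.5 and 310.0 CPM in D3 and 280.4, 294.8, 277.5 and 280.1 CPM in R2. These ranges overlap, and the higher of the pair was D3 in 3 suffixes and R2 in suffix 2. Thus Acr was at its low top of 301.9 CPM while its binding partner Acrbp stood at 2394 CPM in the same cluster.

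The later set was close to the somatic level through pachytene. Acrv1 read 27.3, 17.0, 13.9 and 41.9 CPM in LZ, 5.39, 5.47, 4.40 and 2.75 CPM in P2, 1137, 1134, 1113 and 1168 CPM in D3 and 1880, 1965, 2029 and 2169 CPM in R2. D3 and R2 did not overlap, and both were far above P2. In P2, the deepest cluster, Acrv1 had 0.232 UMI per cell (95% Poisson interval 0.187 to 0.286), beside 0.127 in Sertoli-like cells. Thinned to 1000 UMI, 0.522% of P2 cells held an Acrv1 UMI and 86.3% of R2 cells did, against 7.73% of Sertoli-like cells; unthinned, the shares were 15.9%, 98.7% and 9.23%.

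Spaca1 had the highest pooled level of any member in a cluster, although Acrbp in D1 was higher in suffix 2 and by the mean over cells. Spaca1 read 9.31, 7.86, 6.40 and 8.04 CPM in P2, 1388, 1333, 1323 and 1489 CPM in D3 and 2568, 2448, 2919 and 3042 CPM in R2, with no overlap between clusters. Zp3r had 0.0966 UMI per cell in P2 (0.0680 to 0.133), an interval that holds the 0.0841 of Sertoli-like cells. It read 890.5, 941.8, 893.9 and 947.4 CPM in D3 and 1242, 1543, 1416 and 1513 CPM in R2. The profiles of Acrv1, Zp3r and Spaca1 were alike: r was 0.994 for Acrv1 with Zp3r and 0.988 for Acrv1 with Spaca1.

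Spaca3, Spaca4 and Spaca7 leaned further into the round stage. Spaca4 read 363.6, 450.5, 405.0 and 416.6 CPM in D3, 838.3, 800.8, 917.8 and 1107 CPM in R2 and 719.5, 707.2, 720.0 and 726.0 CPM in R3. R3 lay below R2 and above D3 without overlap. Spaca3 was at 811.2 CPM in D3, 1399 in R2 and 1077 in R3, and Spaca7 at 667.5, 1017 and 710.8 CPM. R2 was the highest cluster of Spaca3, Spaca4, Spaca7, Acrv1, Spaca1, Zp3r and Zpbp in all 4 suffixes. The path from D3 to R2 was not a steady rise. R1, placed between them and far deeper (median 27423 UMI), read below D3 for Acrv1 (397.7 CPM), Spaca1 (840.2), Zp3r (201.1), Zpbp (722.8) and Spaca7 (545.5). Spaca3 (866.9 CPM) and Spaca4 (556.6) read above D3 there.

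**Figure D2:**
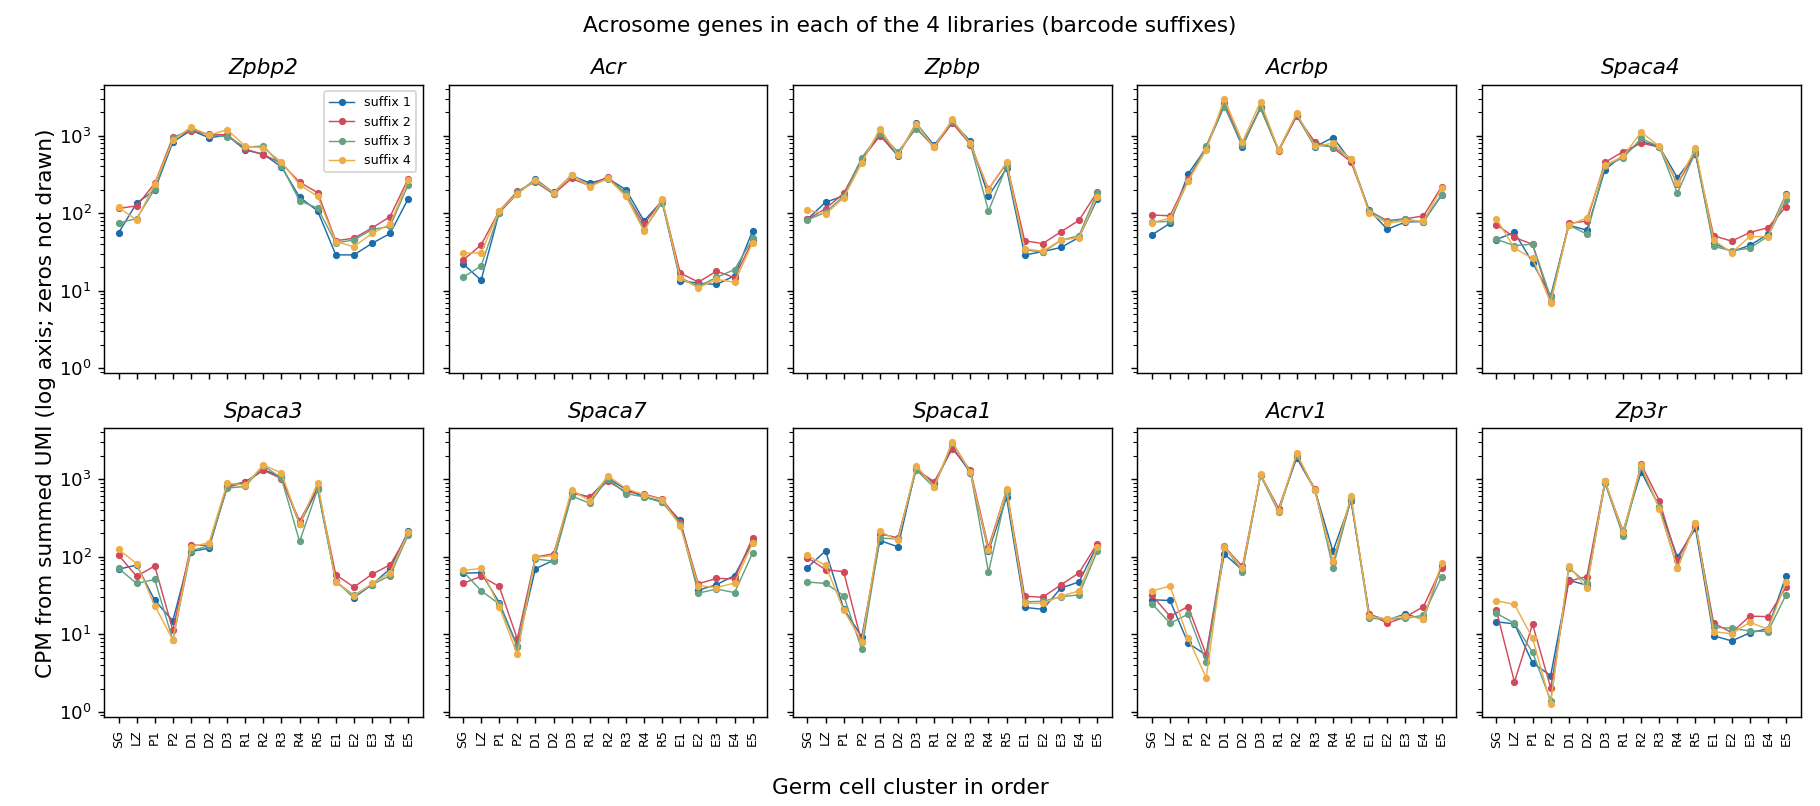
CPM from summed UMI (log axis) of each acrosome gene in 17 germ cell clusters in order, 1 line for each of the 4 barcode suffixes. In R2 Acrv1 runs from 1880 to 2169 CPM, in R5 Zpbp2 from 106.6 to 183.7 CPM and in LZ, at 27 UMI in all, Zp3r from 2.43 to 24.3 CPM.

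In the round stage the highest over the lowest suffix was at most 1.24 for any member, with a median of 1.11, beside a median of 1.24 over 9815 genes with at least 25 UMI in every suffix. For the diplotene to dividing stage the members' median was 1.20 and their maximum 1.32, and for the elongating stage 1.34 and 1.70, beside all-gene medians of 1.23 and 1.28. Phf7 itself ran over 10.7, 9.94 and 9.26 times in the same 3 stages. The members' medians were smaller than those of all genes in the round and diplotene to dividing stages, and larger in the elongating stage. At earlier stages, medians over the members with at least 25 UMI in every suffix were also larger. They were 1.81 beside 1.30 in spermatogonia-like cells (7 members), 1.54 beside 1.30 in LZ (4) and 1.41 beside 1.27 in pachytene cells (9). Phf7 ran over 8.27, 2.50 and 6.36 times in these 3 stages. Counting error widens such ratios at low counts, and members and other genes were not matched for counts. No suffix could be given a genotype, and a link to Phf7 was not tested.

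Neighbouring stages were then compared for every gene with at least 50 UMI over both. The call higher or lower was given where pooled CPM differed at least 2-fold and in the same direction in all 4 suffixes, a rule of size and not a test. Intervals of log2 ratios cover counting error only, at 95%.

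**Figure D3:**
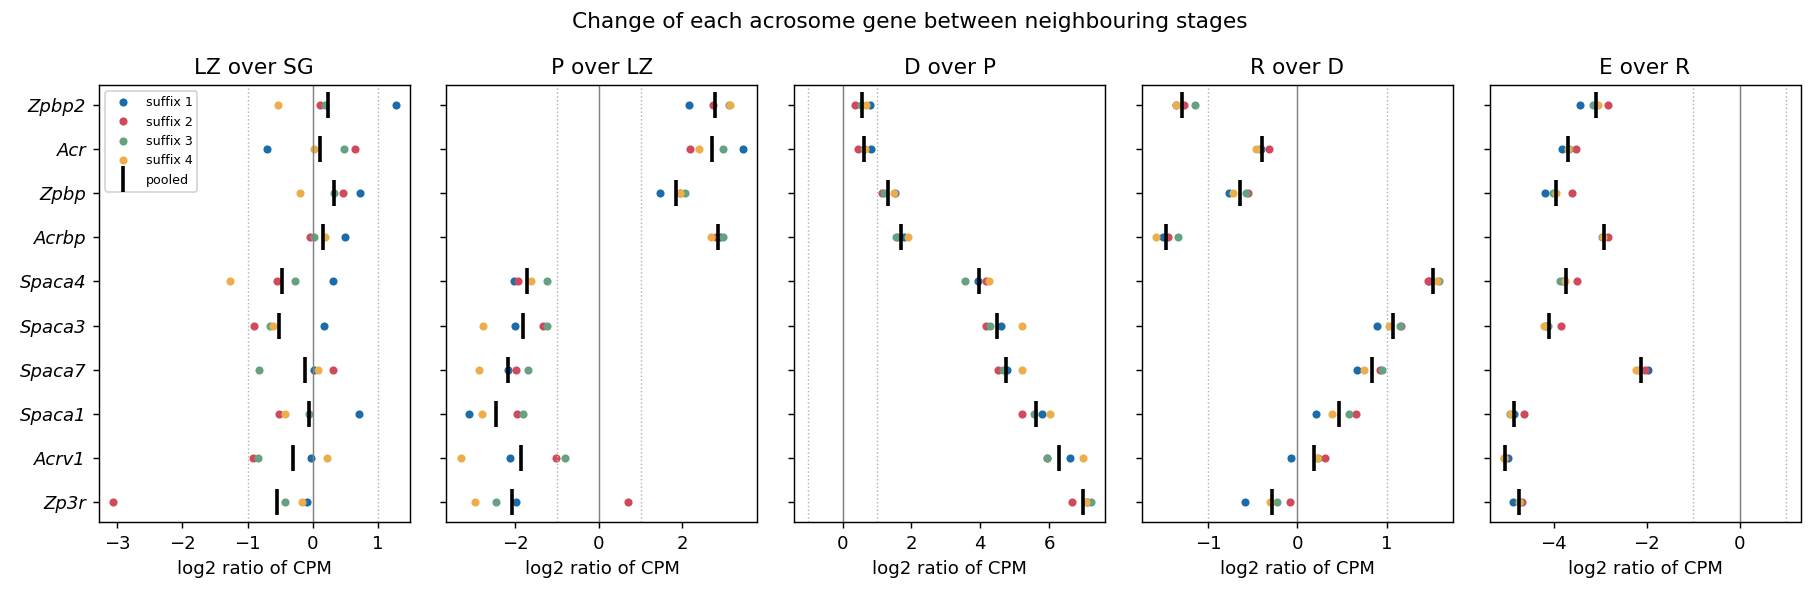
Log2 ratio of CPM (horizontal) of each acrosome gene between neighbouring stages, where SG is spermatogonia-like, LZ leptotene to zygotene-like, P pachytene-like, D diplotene to dividing, R round and E elongating; points are the 4 suffixes, black bars the pooled ratio and dotted lines 2-fold. From P to D the 6 later genes move by 3.97 to 6.98 and Acr and Zpbp2 by 0.62 and 0.57; from R to E all 10 are lower.

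Between spermatogonia-like and LZ cells none of the 10 members was called, where 11.7% of 9032 genes were called higher and 18.3% lower. The members' median log2 ratio was -0.09, and that of all genes -0.13. The suffixes disagreed in sign for 9 members, all but Zp3r; for example Zpbp2 moved by 1.27 in suffix 1 and by -0.54 in suffix 4. Of the wider list 3 of 40 genes tested were higher and 2 lower; 1 of the former was Ly6k, a GPI-anchored protein gene, which was higher by 3.93.

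From LZ to pachytene the 4 earlier members were called higher, beside 23.1% of 10678 genes. Acrbp moved by 2.86 (2.64 to 3.10) on the log2 scale, Zpbp2 by 2.78 (2.58 to 2.98), Acr by 2.71 (2.30 to 3.14) and Zpbp by 1.85 (1.66 to 2.05). Without the deep clusters P2 and R1 the values were 1.80, 1.04, 2.05 and, under 2-fold, 0.56. With cells staged 1 by 1 from marker panels none of the 4 was called (Acr 0.56, Zpbp2 0.65, Acrbp -0.043, Zpbp -0.032), and 3 members were already called higher in LZ. Another 5 members (Acrv1, Spaca1, Spaca3, Spaca4 and Spaca7) were called lower, beside 35.2% of genes, with ratios from -1.71 to -2.47. Zp3r was called neither way at -2.08, since suffix 2 moved by 0.71.

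The lower calls rest on CPM in cells of unequal depth. Per cell, Acrv1 went from 0.116 UMI in LZ to 0.152 in P1 and 0.232 in P2, and Spaca1 from 0.362 to 0.359 and 0.402. Over the same clusters median depth went from 3688 to 3033 and 46935 UMI. The LZ values lay at the somatic level, whose maximum was 0.127 for Acrv1, and just above it for Spaca1, at 0.293. Without P2 and R1 only Spaca1 (-1.29) and Spaca7 (-1.01) were still called lower, and with every cell thinned to 1000 UMI none was. The part of free RNA in these calls was not tested.

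Between pachytene and diplotene to dividing cells 8 members were called higher and none lower, beside 29.5% of 12080 genes higher and 17.8% lower. The members' median log2 ratio was 4.23 and that of all genes 0.12. Zp3r differed most, at 6.98 (6.67 to 7.30), from 3.26 to 411.9 CPM, and Acrv1 next at 6.29 (6.07 to 6.51), from 6.76 to 527.9 CPM. Spaca1 was higher by 5.61, Spaca7 by 4.76, Spaca3 by 4.50 and Spaca4 by 3.97. Of the earlier set Acrbp was higher by 1.70 and Zpbp by 1.33, while Acr (0.62) and Zpbp2 (0.57) were under 2-fold in summed counts. With each cell thinned to 1000 UMI all 10 were called, Acr from 117.8 to 253.4 CPM and Zpbp2 from 516.4 to 1041, as they were without P2 and R1; over all settings the count ran from 6 with marker panels cell by cell to 10.

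Much of this difference lay in D3, which carried round spermatid markers. Without D3 the ratios were 4.03 for Zp3r, 3.85 for Acrv1, 3.66 for Spaca1, 2.96 for Spaca7, 2.88 for Spaca3 and 2.39 for Spaca4, so that all 6 kept the call, as did Acrbp at 1.43. Zpbp then fell short of 2-fold, at 0.98. D1 already held 1.13 Spaca1 and 0.792 Acrv1 UMI per cell, above the somatic maxima of 0.293 and 0.127. The median share of mitochondrial UMI was near 3.0% in D3, 4.12% in D1, 0.302% in D2 and between 0.00946% and 0.0433% in the round clusters.

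The step from diplotene to dividing into round cells was split. Spaca4 was called higher by 1.52 (1.46 to 1.57) and Spaca3 by 1.07 (1.03 to 1.11), beside 21.2% of 13154 genes. Spaca3 was under 2-fold with 6 other settings, from 0.51 to 0.91, and at -0.25 at resolution 0.5, where Spaca4 stood at 0.07; with all genes in the clustering Spaca4 was at 0.94. Acrbp was lower by 1.47 on the log2 scale (-1.49 to -1.45) and Zpbp2 by 1.29 (-1.32 to -1.26), beside 33.6% of genes. The other 6 lay between -0.64 (Zpbp) and 0.84 (Spaca7). Without D3, 6 members were called higher and 2 lower, so the count of higher calls also depended on where D3 is placed.

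By stage, Acr, Acrbp, Zpbp, Zpbp2 and Zp3r were highest in diplotene to dividing cells and the other 5 in round cells. The highest single cluster of Zpbp and Zp3r was nevertheless R2. Zp3r read 466.5, 407.2, 377.2 and 417.7 CPM in the first stage and 309.6, 383.4, 321.4 and 337.7 CPM in the second. These ranges overlap. The round stage was the higher for Zp3r without D3, without P2 and R1, by the mean over cells, with cells thinned and with marker panels.

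Between round and elongating cells all 10 members were called lower. Of all 13087 genes 68% were lower and 5.41% higher. Protamine and transition protein messages made up between 2.87% (E5) and 19.1% (E2) of UMI in the elongating clusters. The members' median log2 ratio was -3.84 and that of all genes -1.82. Acrv1 differed most at -5.05 (-5.13 to -4.97), then Spaca1 at -4.85 and Zp3r at -4.76. At the other end stood Zpbp2 at -3.09, Acrbp at -2.92 and Spaca7 at -2.12 (-2.15 to -2.09), the last close to the all-gene median.

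Spaca7 kept more of its peak level into E1 than the other 9. It read 589.2, 640.4, 588.4 and 626.8 CPM in R4 and 293.1, 276.0, 266.5 and 247.3 CPM in E1, then 37.0, 44.8, 33.9 and 42.4 CPM in E2. The clusters did not overlap. E1 held 26.6% of the peak level, or 3.20 UMI per cell (3.13 to 3.27) beside a somatic maximum of 0.291, and E2 0.412 UMI per cell. Acrbp had 1.25 UMI per cell in E1 and 0.774 in E2 beside a somatic maximum of 0.444.

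In R4 Spaca7 was at 60.1% of its peak, Acrbp at 30.3%, Spaca4 at 25.8% and Acr at 21.9%, while Spaca1, Acrv1 and Zp3r were at 3.95%, 4.43% and 5.62%. R5 was higher than R4 for 7 members, such as Acrv1 at 558.6 against 88.8 CPM, and lower for Acrbp (480.0 against 785.6), Zpbp2 (143.0 against 197.7) and Spaca7 (529.0 against 611.4). The round spermatid genes Sun5 and Catsper3, which are not members, moved like the 7, from 95.7 to 274.3 and from 56.4 to 236.8 CPM. Median depth was 1629 UMI in R4 and 3743 in R5, and R5 split into unlike groups at a finer resolution, so R4 and R5 are not read as steps in time.

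**Figure D4:**
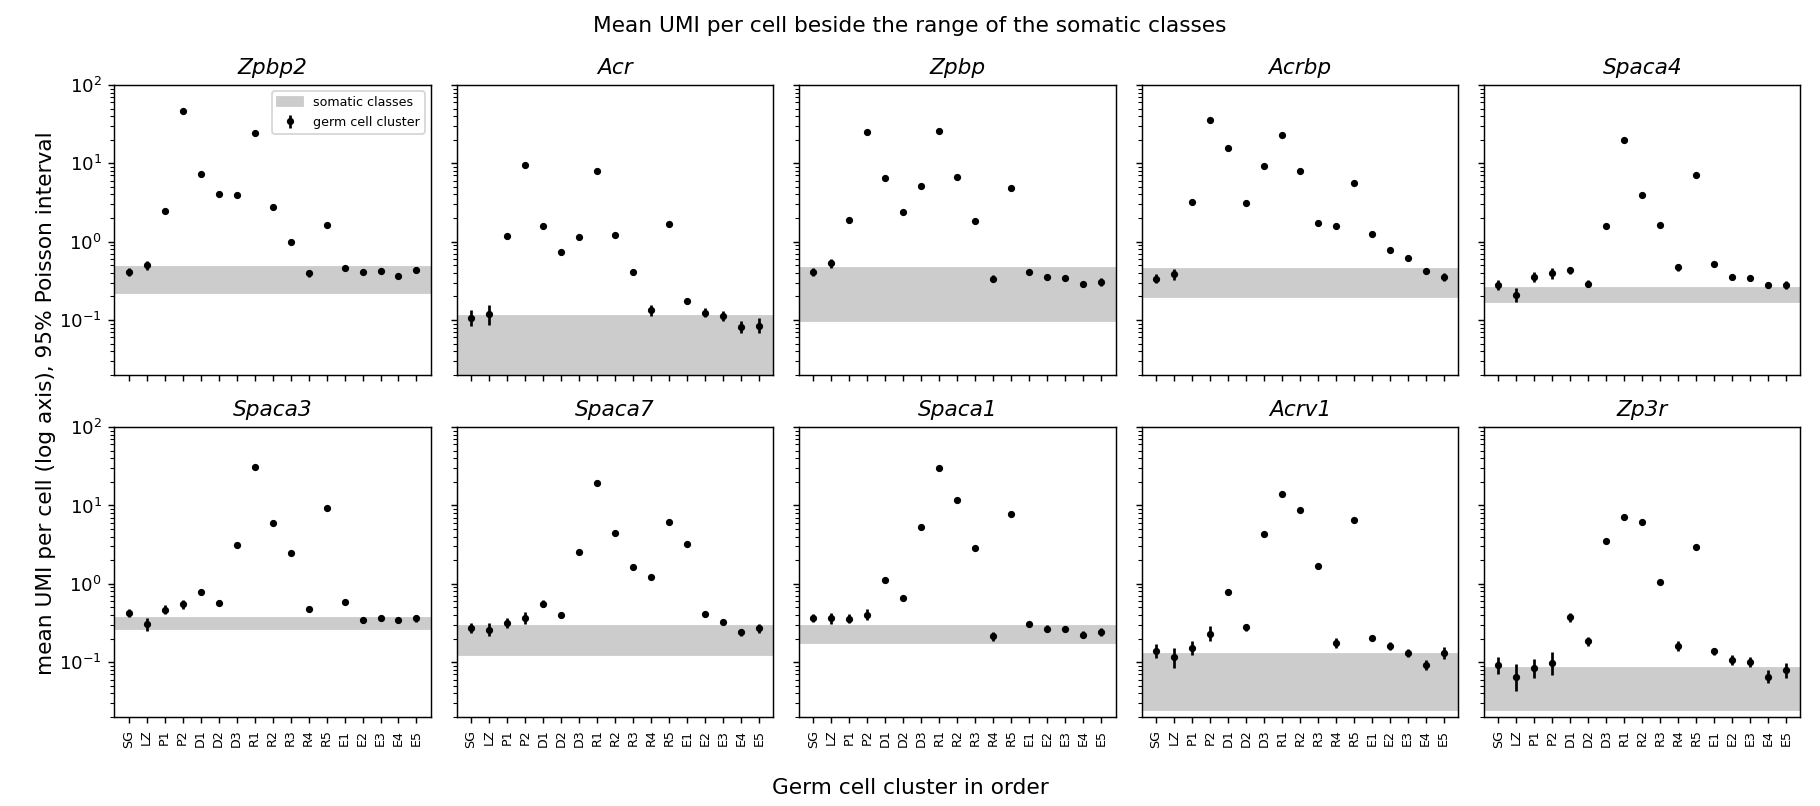
Mean UMI per cell (log axis, from 0.02) of each acrosome gene in 17 germ cell clusters in order, with 95% Poisson intervals; the grey band spans the 5 somatic classes, and for Acr it begins at 0, below the axis. In LZ and in E4 and E5 the points lie in or near the band. In P1 Zpbp2, Acr, Zpbp and Acrbp lie far above it, and in E1 Spaca7 (3.20) and Acrbp (1.25) do. The P1 means include some deep cells, since its median depth is 3033 UMI and its mean 11424.

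After E1 the members stood nearer to the somatic level, and some remained above it. In E2 the intervals of Acrbp, Acrv1, Spaca4, Spaca7 and Zp3r lay above every somatic class, and in E3 those of Acrbp (0.628 UMI per cell, 0.592 to 0.665, against 0.444), Spaca4 (0.341 against 0.259), Spaca7 (0.328 against 0.291) and Zp3r. In E4 and E5 no member's interval did; Acrbp had 0.421 UMI per cell in E4, and Spaca4 0.281 (0.257 to 0.307) against 0.259. E5 read higher in CPM, for example 240.2 for Zpbp2 against 39.4 in E2, but its cells were shallow (median 1633 UMI) and its 0.433 Zpbp2 UMI per cell lay under the 0.471 of Sertoli-like cells. Levels above the somatic maximum were thus not detectable in E4 and E5 at this depth.

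The wider acrosome list, 46 genes found of 49 named, gave the other parts of the vesicle. From LZ to pachytene 15 of its 41 genes tested were higher and 16 lower, beside 23.1% and 35.2% of all genes. The 3 highest were Spink2, an inhibitor of acrosomal proteases, at 3.56, Spata16, a Golgi protein needed for acrosome formation, at 3.32, and the serine protease gene Prss21 at 2.96. Lyzl6, Vps54 and Hyal5 were lowest, at -2.51, -2.61 and -2.70. Of the genes for Golgi transport and biogenesis 5 of 12 were higher and 1 lower.

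From pachytene to diplotene to dividing cells 22 of 42 were higher and 3 lower, beside 29.5% and 17.8% of all genes, led by Spam1, the sperm hyaluronidase, at 5.85, Spaca5 at 5.70 and Tmem190 at 5.23. All 3 genes tested of the list's fusion group, which includes Spaca5, were higher, and of the Golgi group 2 of 12 were. Ly6k, Smap2 and Vps54 were lower, at -1.39, -1.49 and -2.52. The later members thus shared this step with Spam1 and with the fusion gene Izumo1, whose highest cluster was also R2, at 694.0 CPM.

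From diplotene to dividing into round cells 11 of 42 were higher and 10 lower, beside 21.2% and 33.6% of all genes. All 6 genes of the perinuclear theca, the layer that anchors the acrosome to the nucleus, were higher, with a median of 1.82; among them calicin (Ccin) was higher by 3.10 and Actrt2 by 2.41. The complement regulator gene Cd46 was higher by 5.12. None of 11 Golgi genes was higher and 4 were lower, among them Dpy19l2, which fastens the acrosome to the nuclear envelope, at -2.31 and Gopc at -3.49; the protease gene Tmprss12 was lower at -2.08.

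Between round and elongating cells 31 of 42 were lower and 2 higher, beside 68% and 5.41% of all genes, so the list as a whole was near the background. The contents group gave 17 of 18 lower, with Spesp1 at -4.26 and Eqtn at -4.38. Spaca5, placed in the fusion group of this list, was lowest at -4.81. The 2 higher genes were Crisp2, a cysteine-rich secretory protein, at 1.14 and the theca actin-like gene Actrt1 at 1.01, with Actrt2 next at 0.90. Crisp2 is the one gene of the contents group that did not follow the 10 members, at 2103 CPM in round and 4632 CPM in elongating cells.

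The genes most like each member were sought among 10085 genes by Pearson correlation of log2(CPM + 1) over the 17 clusters. These clusters share libraries, depth and order, so the values describe likeness only. Armc3 was most like Acr (r = 0.990), Adam18 most like Acrbp (0.988), Gm128 most like Zpbp (0.992) and 1700018F24Rik most like Zpbp2 (0.990). Prr27 was first for both Acrv1 (0.991) and Spaca1 (0.990), Catsper1 first for Zp3r (0.990) and second for Acrv1 (0.988). Spaca3 was nearest to Efcab9 (0.996), with the lysozyme-like Lyzl6 close behind (0.994), and Spaca4 to Fam209 and Eqtn (both 0.994). Spaca7 was nearest to Tes (0.989).

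Within the set the correlations followed the same division, which was drawn from the same levels, so they are no separate support for it. Among Acr, Acrbp, Zpbp and Zpbp2 they ran from 0.899 to 0.976, and among the 6 later members from 0.858 (Spaca1 with Spaca7) to 0.994. Across the division the lowest was 0.242, for Zpbp2 with Spaca7, and the highest 0.749, for Zpbp with Acrv1.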

How the data were processed

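Counts of UMI per gene and cell were deposited by the authors, made with Cell Ranger 3.0.2, bcl2fastq 2.19.1.403 and mm10 per the submitters' processing notes; the sources do not say whether depth was equalised. The 4 samples are held in 1 matrix. Members and lists were chosen with earlier results of these data known. Cells were filtered, scaled and clustered (scanpy 1.11.5, 2000 variable genes, 30 components, 15 neighbours; leidenalg 0.10.2, resolution 1) and named from markers of 14 cell types, by a scoring rule set after the clusters were seen. No doublets were removed. CPM are summed UMI scaled to 1000000; intervals are exact Poisson, Clopper-Pearson or conditional binomial at 95%, for counting error only. A stage at 0 UMI was set to 3 counts. All 10 members were named; per member the 3 genes most like it, and of the wider list the 3 highest and 3 lowest per comparison. The rule for higher and lower calls was tested on simulated counts. The clustering and the naming of stages were not. The planned genotype test was not run.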

Additional observations from a re-analysis of the deposited data

How the results depend on the processing

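Of the ratios of single members recomputed, 503 kept their direction and call, 31 changed call and 6 changed sign; none changed when 1 suffix was left out. Of the counts and sums, 177 stayed within 1.5 times the count or, for sums, 0.5 of the suffixes' range and 29 moved further; within these bounds the members higher from pachytene to diplotene to dividing cells ran from 6 to 10 and those highest in round cells from 4 to 6. Averaging cells equally gave 2 members lower from spermatogonia to LZ, 0 lower and opposite signs for Spaca3 (0.28), Spaca4 (0.31) and Spaca7 (0.33) from LZ to pachytene, 1 higher in round cells and a summed level of 7262 CPM in diplotene to dividing cells. Thinning gave 0, 1 and 7531 CPM for the last 3 quantities, and allowing all genes in the clustering 0 lower in pachytene, 0 higher and 1 lower in round cells, 3 members highest in round cells and 8824 CPM. Resolution 0.5 gave 0 higher and 6 lower in round cells, Spaca3 at -0.25 and 11262 CPM. In round cells 1 member was higher at resolution 2 (7618 CPM), with at least 1000 genes (7467 CPM) and with up to 20% mitochondrial UMI (7941 CPM). Marker panels cell by cell gave 3 higher in LZ, 0 higher in pachytene with Acrbp at -0.043 and Zpbp at -0.032, 6 higher and 1 lower in round cells and 4755 CPM. Chosen after seeing the data, leaving out D3 gave 6 higher in round cells and 4357 CPM, and leaving out P2 and R1 2 lower in pachytene. Causes were not tested. Resolution 0.5 and the 1000-gene filter gave no LZ class, so its 2 comparisons have no value there. Zp3r was highest in round cells under 5 settings, Acrv1 in diplotene to dividing cells under 2 and Spaca1 under 1. No paired analysis was possible because the barcodes carry no replicate numbers of the samples.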

Other observations

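At resolution 2 cluster R5 fell into groups of 717, 472 and 350 cells with median depths of 2913, 3611 and 30861 UMI. Acrv1 read 1768, 88.5 and 471.9 CPM in them, Spaca1 1878, 49.9 and 650.6 CPM, and Spaca7 669.3, 444.7 and 530.4 CPM. The group of 472 cells, named elongating at that resolution, had the transition protein message Tnp2 at 25354 CPM and kept Spaca7 and Acrbp (401.9 CPM) above the other members. Cluster E1 fell into 1215 cells with Spaca7 at 398.7 CPM and Acrbp at 117.5 CPM, and 1181 cells with Spaca7 at 118.6 CPM and Acrbp at 85.9 CPM. These splits were not tested.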
